A study of Arabidopsis thaliana with 4 samples.

Results

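The AP2/ERF transcription factors described here are 82 of the 25819 genes in an RNA-seq table from Arabidopsis thaliana. They were taken by their deposited descriptions: a gene was a member when its description named the integrase-type DNA-binding superfamily, an ethylene response factor, an ethylene responsive element binding factor or an ERF domain, and 10 genes with such words, among them the CBF factors, some of the DREB2 factors, PLT1 and PLT2, were left out by name. No expression value was used. The 4 groups were larp1 mutant plantlets after 15 min at 38 °C, WT plantlets after 15 min at 38 °C, larp1 plantlets kept at 20 °C and WT plantlets kept at 20 °C, with 1 library per group. All plants were of the ecotype Columbia-0 and 21 days old, had grown on agar with sucrose under continuous light, and were moved to liquid medium at either temperature before harvest. The labels call the mutant larp1 and give no allele. Each library came from a pool of 6 to 8 whole plantlets, so the differences below have no replicate check and no p-value is given. The description also caught AT1G71460 and RPN5B, a proteasome subunit gene, through an exon entry named for the member beside each of them (AT1G71450 and ABR1). Conversely, 48 factors that textbook lists place in the same groups carry other descriptions (RAP2.12, ERF5 and ORA59 are examples) and were not taken.

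AP2/ERF proteins bind DNA through the AP2 domain and are found in plants as one of their largest transcription factor families. DREB-type members bind the dehydration-responsive element, and ERF-type members bind the GCC box in promoters of ethylene-responsive defence genes, where group IX proteins mostly activate and group VIII proteins with an EAR motif repress. Group VII factors act in the response to low oxygen, and the AP2 group, whose proteins carry a repeated AP2 domain, acts in flowering time and organ growth. LARP1 is an RNA-binding protein known in Arabidopsis to take part, with the exonuclease XRN4, in mRNA decay during heat stress, and the libraries ask how transcript levels respond to a short heat stress with and without it. Of the members, 75 fell in 11 such groups fixed from textbook lists and 7 in none.

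Values are in RPM, reads scaled to the library's total, and each gene's value adds up its distinct exon entries. They are not divided by length, so levels are compared only within a gene. The steps between values gave the depth: 1 read was worth 0.0223 RPM in larp1 38 °C and 0.0235 RPM in WT 38 °C, and 0.0134 RPM in larp1 20 °C and 0.0217 RPM in WT 20 °C. That puts the libraries at 44.9 M reads (M for 1000000) in larp1 38 °C and 42.6 M in WT 38 °C, and at 74.4 M in larp1 20 °C and 46.1 M in WT 20 °C. LARP1A, taken here as the gene that the label larp1 concerns, stood at 9.29 RPM in larp1 38 °C and 33.1 RPM in WT 38 °C, and at 9.21 RPM in larp1 20 °C and 37.1 RPM in WT 20 °C. Leaf genes of photosynthesis (4 on the list) summed to 18693 RPM in larp1 38 °C and 26573 RPM in WT 38 °C, and to 33032 RPM in larp1 20 °C and 36778 RPM in WT 20 °C. For 7 root genes the sums were 25.4 RPM in larp1 38 °C and 20.8 RPM in WT 38 °C, and 50.9 RPM in larp1 20 °C and 55.6 RPM in WT 20 °C. Flower organ genes (4) summed to at most 0.30 RPM, with AP1 at 0 in every library but WT 38 °C and AP3 at 0 in both larp1 libraries. In its name, the larp1 20 °C column has a suffix, "bis", whose meaning the labels do not give.

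The sequences shown first concern the AP2 group, since AP2, SMZ and SNZ are known targets of miR172 and each was called lower after heat in larp1, in WT or in both. SMZ and SNZ repress flowering, and AP2 specifies floral organs. In the RefSeq annotation and genome of TAIR10.1, these were the only members with a transcript stretch matching miR172 at all but 3 or fewer positions. Each stretch lies in the coding part of an exon. The microRNAs are written as DNA, 5′ to 3′, with the seed (bases 2 to 8) in capitals, and both share the seed. In the sites the capitals mark the bases that pair with the named microRNA.
miR172c: aGAATCTTgatgatgctgcag
miR172e-3p: gGAATCTTgatgatgctgcat
AP2 site: CTGCAGCATCATCAgGATTCT
SMZ site: tTGCAGCATCATCAgGATTCC
SNZ site: tTGtAGCATCATCAgGATTCC
The AP2 site (chr4:17403019-17403039, plus strand) has 1 mismatch to miR172c. The SMZ site (chr3:20373774-20373794, minus strand) has 2 mismatches to miR172e-3p, and the SNZ site (chr2:16389066-16389086, minus strand) has 3. Levels of miR172 are not analysed here.

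Promoters are shown for 3 members with different heat responses: ERF104, which was higher after heat, ERF1A, which was nearly level in WT, and ERF11, which was lower in both genotypes. Each is the 250 bases before the annotated start of the gene in TAIR10.1 (RefSeq). Capitals mark heat shock elements (HSE, searched as GAANNTTC or TTCNNGAA), the GCC box (GCCGCC), the dehydration-responsive element (ACCGAC or GCCGAC) and the G-box (CACGTG), on both strands. Matches of an HSE may overlap each other, as a pair does in ERF1A.
ERF104 (chr5:24767733-24767982, minus strand): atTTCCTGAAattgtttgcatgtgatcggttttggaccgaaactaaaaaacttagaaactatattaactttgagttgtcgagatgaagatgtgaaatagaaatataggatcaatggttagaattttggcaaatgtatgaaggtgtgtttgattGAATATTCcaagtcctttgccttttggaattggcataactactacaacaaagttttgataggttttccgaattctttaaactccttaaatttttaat
ERF1A (chr4:9758953-9759202, plus strand): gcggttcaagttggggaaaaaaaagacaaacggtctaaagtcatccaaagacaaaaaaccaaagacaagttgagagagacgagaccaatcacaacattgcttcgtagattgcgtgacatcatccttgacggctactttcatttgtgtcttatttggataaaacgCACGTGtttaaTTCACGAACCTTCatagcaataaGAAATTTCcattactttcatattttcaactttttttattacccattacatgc
ERF11 (chr1:9956981-9957230, minus strand): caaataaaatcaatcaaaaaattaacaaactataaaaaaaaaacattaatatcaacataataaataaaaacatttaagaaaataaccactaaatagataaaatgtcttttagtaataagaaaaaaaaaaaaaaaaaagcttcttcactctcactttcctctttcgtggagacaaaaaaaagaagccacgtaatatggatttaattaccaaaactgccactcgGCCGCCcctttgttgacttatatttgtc
ERF104 holds 2 HSE matches, ERF1A holds 3 with 1 G-box, and ERF11 holds 1 GCC box and no HSE. Among all 82 members, 10 (12.2%) had an HSE match, against 16.1% of 27443 promoters of the same length. An HSE was present in 1 of the 5 members that were higher after heat in either genotype, namely ERF104. It was present in 0 of the 17 that were lower in both, and in 3 of 24 compared in both and called in neither. Of the 17, 1 held a GCC box, namely ERF11. For these motifs ERF104 and ERF11 are thus not typical of their sets. GCC boxes were found in 3 members (3.66%, against 1.87% of all promoters), dehydration-responsive elements in 7 (8.54%, against 7.09%) and G-boxes in 8 (9.76%, against 6.49%). The W-box core (TTGAC), which was not put in capitals, was in 37 members (45.1%) and in 44.9% of all promoters. These matches describe letters only, and no binding was measured.

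After 15 min at 38 °C, AP2/ERF transcripts that passed the call were mostly lower in either genotype. Comparison needed 50 reads or more in either library of a pair, and a call needed a 2-fold difference with a 95% counting interval off no change. Log2 fold changes were taken after adding the worth of 1 read to each RPM value, and intervals cover counting error only. In larp1, 22 of 61 compared members were lower and 2 were higher, where 19.8% of all 20475 compared genes were lower and 4.19% were higher. In WT, 23 of 56 members were lower and 3 were higher, where 25.0% of all 19387 compared genes were lower and 4.26% were higher. The median log2 fold change of members was -0.70 in larp1, against -0.43 for all compared genes, and -0.65 in WT, against -0.51 for all. The members' median thus lay below that of all genes by 0.27 in larp1 and by 0.14 in WT. With a pseudocount of 0.5 RPM, the members' median minus that of all genes was -0.079 in larp1 and -0.077 in WT. Among genes with 1 distinct exon entry, the members' median lay above that of all such genes, as given below. In whole plantlets, fewer cells of a type and less RNA per cell cannot be told apart. Of the root list, 4 of 7 compared genes were lower and 1 was higher in larp1, and 4 of 6 were lower and 1 was higher in WT; the part of this shift in the members' levels was not tested.

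Scaling matters for these counts, because the median of all genes itself lay below 0. TMM scaling raised every log2 fold change by 0.41 in larp1 and 0.51 in WT, and median-of-ratios scaling by 0.44 and 0.53. Of the called members, the share that was higher was 8.33% in larp1 with RPM and 33.3% with either scaling. In WT that share was 11.5% with RPM, 33.3% with TMM and 35.7% with median-of-ratios. Among called genes of the whole table it moved likewise, being 17.5% with RPM, 38.9% with TMM and 40.9% with median-of-ratios in larp1, and 14.6%, 38.0% and 39.8% in WT. Either scaling shifts log2 values by less than the 2-fold difference that a call needs. A called difference could thus lose its call but could not change its sign.

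**Figure D1:**
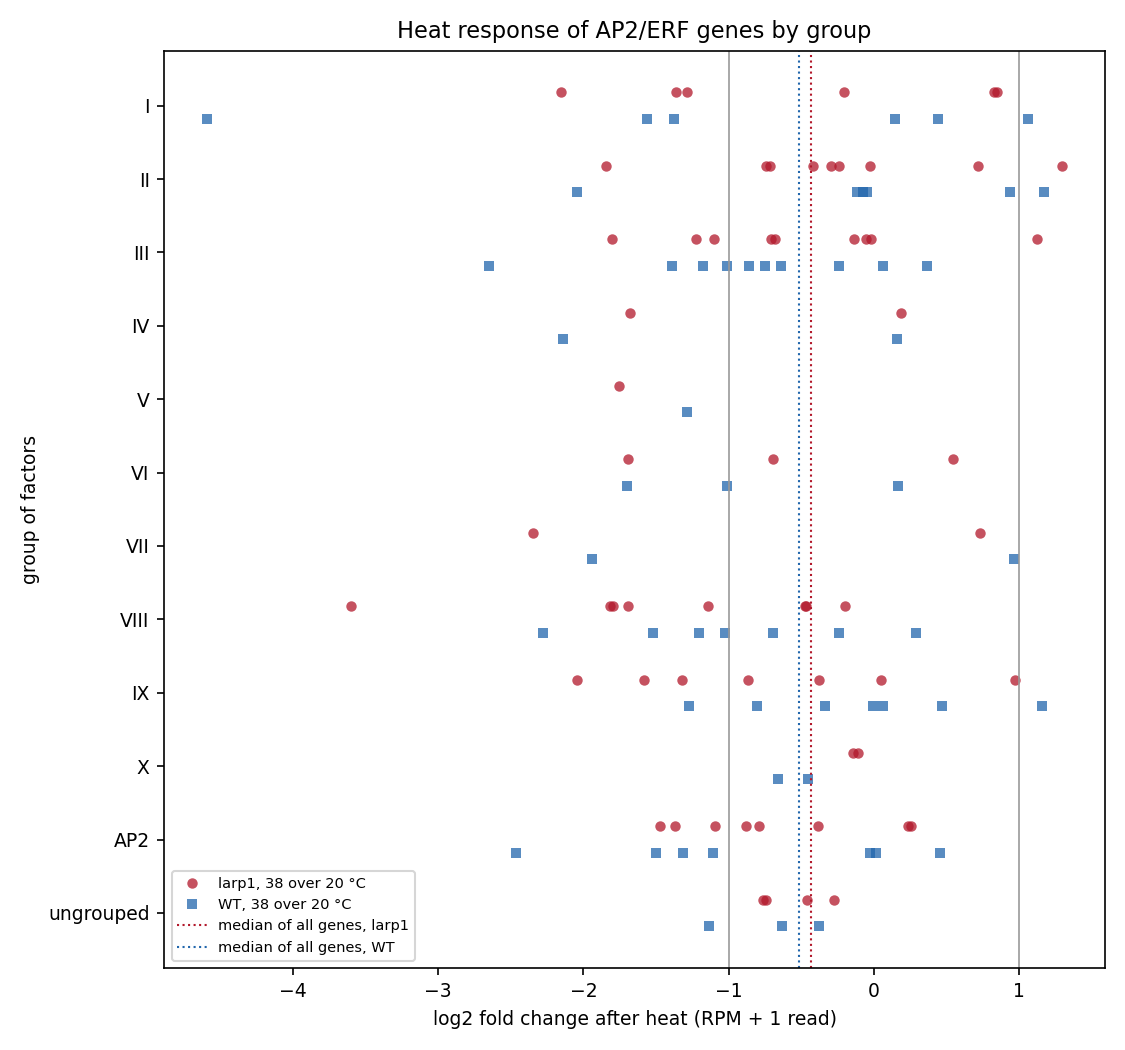
Heat response of the compared AP2/ERF genes by group: each point is 1 gene, the x axis gives the log2 fold change of 38 over 20 °C (RPM plus 1 read), red circles are larp1 and blue squares are WT. Grey lines mark a 2-fold difference and dotted lines the median of all compared genes; most points of group VIII lie left of the dotted lines, and those of group IX spread from -2.04 to 0.97 in larp1 and from -1.27 to 1.15 in WT.

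The members lower after heat overlapped widely between genotypes. Among 55 members compared in both, 17 were lower in both, which is 81.0% of the 21 lower in larp1 and 77.3% of the 22 lower in WT. For all genes compared in both, 3122 were lower in both, which is 85.0% of the larp1 list and 64.8% of the WT list. The 17 were AT1G19210, ERF11, ERF8, AT1G64380, HRE1, AT2G22200, ERF7, CRF11, SMZ, AT3G57600, AT4G32800, AP2, ANT, AT4G39780, AT5G07580, ESE3 and ERF9. With TMM scaling 8 of them stayed lower in both (AT1G19210, AT2G22200, AT3G57600, CRF11, ERF11, ERF9, HRE1 and SMZ), and with median-of-ratios scaling 7 did, ERF11 missing the threshold in WT. Of the calls made in 1 genotype, those of ERF1B and AT3G16280 in larp1 and of CRF8, SNZ, AT2G44940, AT4G13040 and AT4G16750 in WT were lost with either scaling.

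Lower calls after heat were more frequent among genes with a single exon entry, to which most AP2/ERF genes belong. Of the members, 61 have 1 distinct exon entry and 21 have several. Genes of the whole table with 1 entry were lower after heat in 42.1% of cases in larp1 and 49.2% in WT, whereas genes with several entries were lower in 15.2% in larp1 and 20.2% in WT. Among members with 1 entry, 16 of 43 (37.2%) were lower in larp1 and 15 of 40 (37.5%) in WT, which is under the share of all genes with 1 entry. Among members with several entries, 6 of 18 (33.3%) were lower in larp1 and 8 of 16 (50%) in WT, above the share of all such genes. For members with 1 entry, the median log2 fold change was -0.70 in larp1 and -0.64 in WT. All genes with 1 entry had -0.83 in larp1 and -0.98 in WT. For members with several entries the median was -0.60 in larp1 and -0.89 in WT, against -0.39 and -0.47 for all such genes.

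The 5 members called higher after heat belong to groups I, II, III and IX. AT1G22190, a DREB-type factor of group I, had 241 RPM in larp1 38 °C and 136 RPM in larp1 20 °C, and 192 RPM in WT 38 °C and 92.1 RPM in WT 20 °C. Its log2 fold change was 0.83 in larp1 (95% counting interval 0.79 to 0.87) and 1.06 in WT (1.00 to 1.11), so it lay on either side of the 2-fold threshold. DREB26, a group II DREB factor, had 146 RPM in larp1 38 °C and 88.7 RPM in larp1 20 °C, and 172 RPM in WT 38 °C and 76.6 RPM in WT 20 °C. It too was called in WT (1.17, 1.11 to 1.23) and not in larp1 (0.72, 0.67 to 0.77). ERF104, a group IX factor known as a substrate of the MAP kinase MPK6 in immune signalling, had 229 RPM in larp1 38 °C and 117 RPM in larp1 20 °C, and 166 RPM in WT 38 °C and 74.5 RPM in WT 20 °C. Its log2 fold change of 1.15 in WT passed the call and that of 0.97 in larp1 (0.93 to 1.02) fell just short.

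AT1G44830, another group II DREB factor, had 8.03 RPM in larp1 38 °C and 3.27 RPM in larp1 20 °C, and 7.77 RPM in WT 38 °C and 4.06 RPM in WT 20 °C. It passed the call in larp1 (1.29, 1.06 to 1.54), with 0.93 in WT. TINY, a group III factor whose overexpression is known to stunt plants, had 6.83 RPM in larp1 38 °C and 3.13 RPM in larp1 20 °C, and 6.22 RPM in WT 38 °C and 4.82 RPM in WT 20 °C. Its log2 fold change was 1.12 in larp1 (0.88 to 1.38) and 0.37 in WT (0.11 to 0.63). All 5 were thus above their 20 °C level in both genotypes, although none passed the call in both with RPM. For all genes compared in both, 700 were higher in both, which is 87.3% of the larp1 list and 84.8% of the WT list. With either TMM or median-of-ratios scaling, AT1G22190, AT1G44830, DREB26, ERF104 and the group VII gene HRE2 passed the call in both genotypes.

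**Figure D2:**
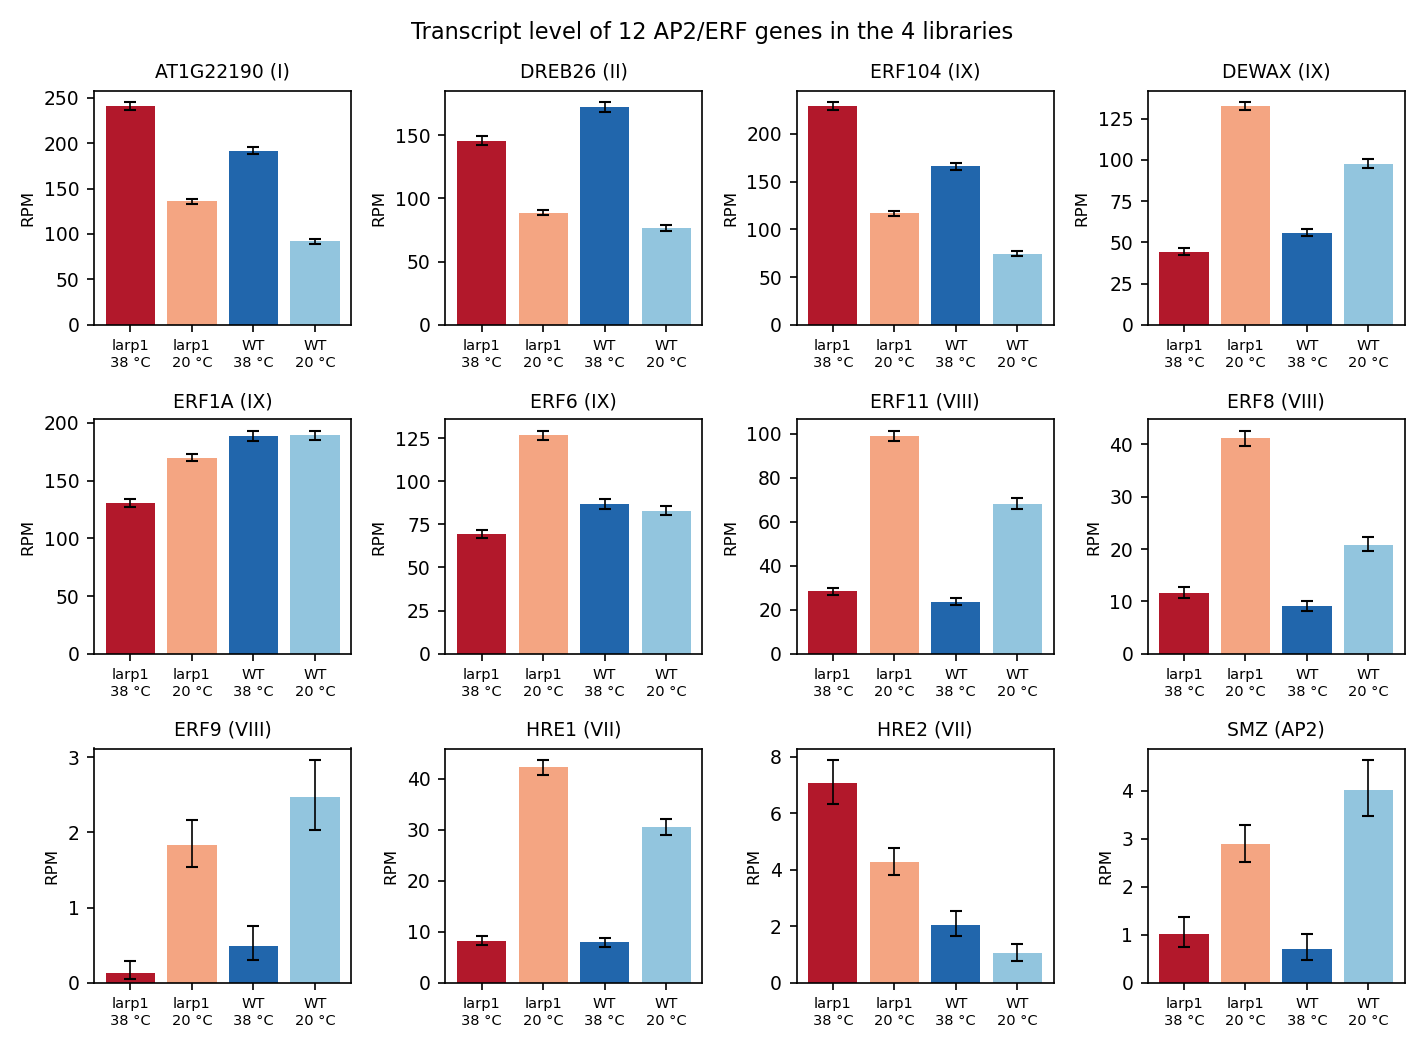
Transcript level of 12 AP2/ERF genes: each panel is a gene, the y axis gives RPM from 0, and the bars from left to right are larp1 38 °C, larp1 20 °C, WT 38 °C and WT 20 °C, with 95% Poisson counting intervals. AT1G22190, DREB26 and ERF104 stand higher at 38 °C than at 20 °C in either genotype, ERF11, ERF8, ERF9, HRE1 and SMZ stand lower, and HRE2 stands higher in larp1 than in WT at each temperature.

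Group IX, the ethylene and defence activators, split after heat. Its 7 compared members had a median log2 fold change of -0.87 in larp1, with 3 lower and 0 higher, and of -0.01 in WT, with 1 lower and 1 higher; with TMM scaling the WT median became 0.50, while that of larp1 stayed below 0 at -0.46. DEWAX, which represses wax synthesis genes, had 44.4 RPM in larp1 38 °C and 133 RPM in larp1 20 °C, and 55.9 RPM in WT 38 °C and 97.8 RPM in WT 20 °C. It was lower after heat in larp1 (-1.58, -1.65 to -1.51) and missed the threshold in WT (-0.81, -0.88 to -0.74). DEWAX and ERF104 are neighbours on the same strand of chromosome 5 with no other protein-coding gene between them in TAIR10.1, and their log2 fold changes had opposite signs in both genotypes, also with either scaling.

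AT5G07580 of group IX had 17.7 RPM in larp1 38 °C and 73.0 RPM in larp1 20 °C, and 21.0 RPM in WT 38 °C and 50.8 RPM in WT 20 °C. It was lower in larp1 (-2.04, -2.15 to -1.94) and in WT (-1.27, -1.39 to -1.16), the WT call being lost with either scaling. ERF1B, known as an activator that integrates ethylene and jasmonate signals downstream of EIN3, had 2.58 RPM in larp1 38 °C and 6.49 RPM in larp1 20 °C, and 3.54 RPM in WT 38 °C and 4.47 RPM in WT 20 °C. Its fall passed the call in larp1 (-1.32, -1.64 to -1.03), and its value in WT was -0.33 (-0.65 to -0.03). ERF6 and ERF1A, GCC-box activators that lie side by side on opposite strands of chromosome 4, were called in neither genotype. ERF6 had 69.5 RPM in larp1 38 °C and 127 RPM in larp1 20 °C (-0.87), against 86.7 RPM in WT 38 °C and 82.9 RPM in WT 20 °C (0.06). ERF1A had 131 RPM in larp1 38 °C and 170 RPM in larp1 20 °C (-0.38), and it was nearly level at 188 RPM in WT 38 °C and 189 RPM in WT 20 °C (-0.01). ERF105, known from cold tolerance, had 134 RPM in larp1 38 °C and 129.7 RPM in larp1 20 °C (0.05), and 111 RPM in WT 38 °C and 80.6 RPM in WT 20 °C (0.47). ERF105 overlaps the gene AT5G51180 on the opposite strand by 965 bases, and reads of such pairs cannot be told apart because the use of strand is not given in the sources used here.

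Group VIII, which holds the EAR-motif repressors, had the lowest median heat response in larp1 among the groups with at least 7 compared members. Of its 8 compared members in larp1, 5 were lower and none was higher (median -1.42), and of 7 in WT, 4 were lower and none was higher (median -1.03). With TMM scaling 4 were lower in larp1 and 2 in WT, and both medians stayed below 0 (-1.01 in larp1 and -0.52 in WT). ERF3, ERF8, ERF11 and ERF12 of this group have 1 distinct exon entry. With RPM, all genes with 1 entry had a median of -0.83 in larp1 (42.1% lower) and -0.98 in WT (49.2% lower). In WT the group's median is thus near that of such genes. ERF11 had 28.5 RPM in larp1 38 °C and 99.2 RPM in larp1 20 °C, and 23.8 RPM in WT 38 °C and 68.3 RPM in WT 20 °C. Its log2 fold change was -1.80 in larp1 (-1.89 to -1.71) and -1.52 in WT (-1.63 to -1.42). ERF8 had 11.6 RPM in larp1 38 °C and 41.1 RPM in larp1 20 °C, and 9.04 RPM in WT 38 °C and 20.9 RPM in WT 20 °C. It was lower in larp1 (-1.82, -1.96 to -1.69) and in WT (-1.20, -1.38 to -1.04), where either scaling removed the call.

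ERF9 was read few times, with 0.13 RPM (6 reads) in larp1 38 °C and 1.83 RPM (136 reads) in larp1 20 °C, and 0.49 RPM (21 reads) in WT 38 °C and 2.47 RPM (114 reads) in WT 20 °C. Its fall was -3.60 in larp1 (-5.25 to -2.62) and -2.28 in WT (-3.07 to -1.65), with wide intervals at these counts. ERF7 fell in both genotypes, though with neither call left under either scaling, with 31.8 RPM in larp1 38 °C and 70.2 RPM in larp1 20 °C (-1.14), and 28.6 RPM in WT 38 °C and 58.4 RPM in WT 20 °C (-1.03). ERF12 is the neighbour of ERF11 on the opposite strand of chromosome 1; it had 0.36 RPM in larp1 38 °C and 1.22 RPM in larp1 20 °C (-1.69) and was called lower there, while in WT its reads fell short of the minimum. The repressors ERF3 and ERF4 did not pass the call. ERF4 had 126 RPM in larp1 38 °C and 144 RPM in larp1 20 °C (-0.20), and 127 RPM in WT 38 °C and 104 RPM in WT 20 °C (0.29). ERF3 had 51.4 RPM in larp1 38 °C and 71.4 RPM in larp1 20 °C (-0.48), and 48.2 RPM in WT 38 °C and 57.1 RPM in WT 20 °C (-0.24).

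The group VII members that the descriptions caught, HRE1 and HRE2, went opposite ways. Both encode factors of the low-oxygen response whose relatives are degraded through the N-degron pathway when oxygen is present. HRE1 had 8.27 RPM in larp1 38 °C and 42.2 RPM in larp1 20 °C, and 7.92 RPM in WT 38 °C and 30.4 RPM in WT 20 °C. It was lower in larp1 (-2.35, -2.51 to -2.20) and in WT (-1.94, -2.12 to -1.77), and all 4 of its exon entries fell in either genotype (-2.47 to -1.78 in larp1 and -1.98 to -1.66 in WT). Alternative exons of HRE1 overlap, so a read can count in several entries. Its entries are thus not separate measurements, and its intervals can be too narrow. HRE1 overlaps AT1G72370 on the opposite strand by 124 bases. HRE2 had 7.08 RPM in larp1 38 °C and 4.27 RPM in larp1 20 °C, and 2.05 RPM in WT 38 °C and 1.04 RPM in WT 20 °C. Its heat values of 0.73 in larp1 (0.50 to 0.96) and 0.97 in WT (0.45 to 1.51) did not pass the call.

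Of 8 compared genes on a list of low-oxygen response genes, 1 was higher after heat in WT and none was called in larp1. That gene was LBD41, a hypoxia-induced transcription factor gene, with 6.12 RPM in larp1 38 °C and 4.05 RPM in larp1 20 °C (0.60), and 12.1 RPM in WT 38 °C and 2.11 RPM in WT 20 °C (2.51). With either scaling LBD41 passed the call in larp1 as well, and the hypoxia-induced gene HRA1 passed it in WT. The fermentation genes did not pass the call: ADH1 had -0.06 in larp1 and -0.31 in WT, and PDC1 had -0.52 in larp1 and -0.99 in WT, as log2 fold changes. The median of the list was -0.46 in larp1 and -0.23 in WT, close to or above that of all genes.

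In the AP2 group, 3 of 8 compared members were lower after heat in larp1 (median -0.84) and 4 of 7 in WT (median -1.11), and none was higher. With either scaling SMZ alone was lower in each genotype, the medians with TMM being -0.43 in larp1 and -0.60 in WT. SMZ had 1.02 RPM in larp1 38 °C and 2.88 RPM in larp1 20 °C, and 0.71 RPM in WT 38 °C and 4.02 RPM in WT 20 °C. Its fall of -1.47 in larp1 (-1.98 to -1.02) and -2.46 in WT (-3.12 to -1.95) held with either scaling. SMZ overlaps AT3G54980 on the opposite strand by 544 bases. Its paralog SNZ had 7.78 RPM in larp1 38 °C and 13.5 RPM in larp1 20 °C (-0.79, not called), and 6.77 RPM in WT 38 °C and 19.2 RPM in WT 20 °C (-1.50). AP2, the third miR172 target shown above, had 4.98 RPM in larp1 38 °C and 12.9 RPM in larp1 20 °C (-1.37), and 5.21 RPM in WT 38 °C and 11.3 RPM in WT 20 °C (-1.11). Every entry of AP2 with at least 20 reads fell, 6 of 6 in larp1 and 5 of 5 in WT. These entries make up the summed value that was called, so their direction is not separate support.

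ANT, which promotes organ growth, had 4.55 RPM in larp1 38 °C and 9.73 RPM in larp1 20 °C (-1.09), and 4.14 RPM in WT 38 °C and 10.3 RPM in WT 20 °C (-1.31). Calls of AP2 and ANT were lost in both genotypes with either scaling. WRI1, the regulator of seed oil synthesis, did not pass the call, with 10.2 RPM in larp1 38 °C and 13.3 RPM in larp1 20 °C (-0.38), and 9.74 RPM in WT 38 °C and 9.66 RPM in WT 20 °C (0.01). AT2G41710 of the same group had 17.6 RPM in larp1 38 °C and 15.0 RPM in larp1 20 °C (0.24), and 18.2 RPM in WT 38 °C and 13.3 RPM in WT 20 °C (0.46). An entry named for AT2G41705 gave 3.89 RPM of this in larp1 38 °C and 3.5 RPM in WT 38 °C. AT2G41710 also overlaps AT2G09305 on the opposite strand by 1530 bases. The signal of WRI4 came mostly from an entry named for its neighbour AT1G79690 (4.23 RPM in larp1 38 °C, against 2.14 RPM from its own entries), so its level is uncertain.

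Among DREB-type groups, group I had 3 of 6 compared members lower in larp1 (median -0.75) and 3 of 6 in WT (median -0.61). The same 3 genes made up both counts: AT2G22200, AT4G39780 and AT1G64380. With either scaling 1 was lower in larp1 and 2 in WT, and the medians with TMM were -0.34 in larp1 and -0.11 in WT. AT2G22200 had 0.47 RPM (21 reads) in larp1 38 °C and 2.18 RPM (162 reads) in larp1 20 °C, and 0.19 RPM (8 reads) in WT 38 °C and 5.12 RPM (236 reads) in WT 20 °C. Its WT value of -4.59 was the lowest among the members, and its larp1 value was -2.16. AT4G39780 had 3.63 RPM in larp1 38 °C and 9.37 RPM in larp1 20 °C (-1.36), and 3.31 RPM in WT 38 °C and 9.81 RPM in WT 20 °C (-1.56).

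Group II stood near level, with a median of -0.29 over 9 compared members in larp1 and -0.06 over 6 in WT, both turning positive with TMM scaling (0.12 in larp1 and 0.45 in WT). Its lower member was AT1G19210, with 32 reads in larp1 38 °C and 194 in larp1 20 °C (-1.84), and 15 reads in WT 38 °C and 70 in WT 20 °C (-2.05). ORA47, known to drive jasmonate synthesis genes, had 18.8 RPM in larp1 38 °C and 31.0 RPM in larp1 20 °C (-0.71), and 20.0 RPM in WT 38 °C and 20.7 RPM in WT 20 °C (-0.05), and was not called. In group III, 3 of 9 compared members were lower and 1 (TINY) was higher in larp1 (median -0.68), and 4 of 10 were lower in WT (median -0.80). With either scaling 1 member of group III was lower in each genotype, and the medians with TMM were -0.27 in larp1 and -0.30 in WT. DDF1, the group III member with the most reads and a relative of the CBF factors, was nearly level at 73.4 RPM in larp1 38 °C and 76.2 RPM in larp1 20 °C (-0.05), and at 59.3 RPM in WT 38 °C and 56.8 RPM in WT 20 °C (0.06). AT3G57600 of group IV was lower in both, with 1.14 RPM in larp1 38 °C and 3.71 RPM in larp1 20 °C (-1.68), and 1.22 RPM in WT 38 °C and 5.45 RPM in WT 20 °C (-2.14). The other compared member of group IV, AT1G75490, was not called (0.19 in larp1 and 0.16 in WT).

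ESE3, named for its induction by ethylene and salt and the compared member of group V, had 3.25 RPM in larp1 38 °C and 11.0 RPM in larp1 20 °C (-1.75, -2.03 to -1.51), and 3.34 RPM in WT 38 °C and 8.18 RPM in WT 20 °C (-1.29, -1.58 to -1.01). It was lower in both genotypes, the WT call being lost with either scaling. CRF11 of group VI, the cytokinin response factor type, had 17.0 RPM in larp1 38 °C and 54.9 RPM in larp1 20 °C, and 16.3 RPM in WT 38 °C and 52.9 RPM in WT 20 °C. Its falls of -1.69 in larp1 (-1.81 to -1.58) and -1.70 in WT (-1.82 to -1.58) were nearly equal. CRF8 was called in WT (-1.01) and not in larp1 (-0.70), and CRF7 was called in neither (0.55 in larp1 and 0.16 in WT). ABR1 of group X, known as a repressor of abscisic acid responses, had 21.0 RPM in larp1 38 °C and 22.7 RPM in larp1 20 °C (-0.11), and 21.7 RPM in WT 38 °C and 29.8 RPM in WT 20 °C (-0.46), and was not called. AT4G13040, which is in no group, fell in WT (-1.14) and had -0.74 in larp1, and RPN5B had -0.28 in larp1 and -0.38 in WT. Much of the RPN5B signal came from the entry named for ABR1, so its values are uncertain. That entry gave 3.34 RPM in larp1 38 °C and 3.68 RPM in WT 38 °C, against 3.59 and 2.98 RPM from its own entries.

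Ethylene acts through receptors, the kinase CTR1, EIN2 and the factors EIN3 and EIL1, which activate ERF1B and its relatives. Of 12 genes on this list, all compared, 1 was lower after heat in larp1 and 3 in WT, and none was higher; the median was -0.49 in larp1 and -0.61 in WT, near that of all genes. The receptor gene ERS1 had 26.2 RPM in larp1 38 °C and 60.1 RPM in larp1 20 °C (-1.19), and 26.1 RPM in WT 38 °C and 70.3 RPM in WT 20 °C (-1.43). The receptor gene EIN4 (-0.94 in larp1 and -1.42 in WT) and EBF2, an F-box gene whose protein degrades EIN3 (-0.61 in larp1 and -1.02 in WT), were called in WT. These calls of ERS1, EIN4 and EBF2 were lost with either scaling, the log2 values with TMM being -0.79 in larp1 and -0.92 in WT for ERS1, and -0.91 for EIN4 and -0.51 for EBF2 in WT. EIN3 itself had 181 RPM in larp1 38 °C and 168 RPM in larp1 20 °C (0.11), and 157 RPM in WT 38 °C and 168 RPM in WT 20 °C (-0.10). Among GCC-box defence genes, 3 of 5 were compared. PR4, a chitin-binding defence protein gene, had 26.7 RPM in larp1 38 °C and 60.6 RPM in larp1 20 °C (-1.18, lower), and 44.2 RPM in WT 38 °C and 57.0 RPM in WT 20 °C (-0.37, not called). Its call in larp1 was lost with either scaling (-0.77 with TMM). CHI-B was not called (-0.70 in larp1 and -0.47 in WT).

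The heat responses of larp1 and WT were then set against each other, which asks whether the mutation goes with another response to heat. A difference was called when it passed 1 on the log2 scale with a counting interval off 0. Of 55 members, 1 difference was above and 2 were below, where 2.06% of 19349 genes were above and 0.662% were below. With either scaling 4 members were below, ERF1B and ERF6 being added, and the share above among the calls was 20% instead of 33.3%. For all genes 0.930% were then below with TMM and 0.915% with median-of-ratios, and the share above among the calls was 63.0% and 63.5%, where it was 75.7% with RPM. The members' median difference was -0.11, against 0.10 for all genes, and 27 of 55 members (49.1%) had a difference above 0, against 63.1% of all genes.

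The difference above was that of AT2G22200 (2.43, counting interval 1.28 to 3.59), whose fall was deeper in WT and rests on 8 reads in WT 38 °C. The differences below were those of ERF9 (-1.32, -2.60 to -0.04), resting on 6 reads in larp1 38 °C, and of AT1G01250, a group III factor (-1.16, -1.90 to -0.42). AT1G01250 had 0.87 RPM (39 reads) in larp1 38 °C and 3.10 RPM (231 reads) in larp1 20 °C, and 0.92 RPM (39 reads) in WT 38 °C and 1.45 RPM (67 reads) in WT 20 °C. Both differences below were lost with a pseudocount of 0.5 RPM. These 3 members are thus among those with few reads.

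All 7 compared members of group IX had a difference below 0, from -0.99 for ERF1B to -0.18 for ERF104, with a median of -0.77. TMM scaling shifts every difference by -0.10, so all 7 could only stay below 0, with a median of -0.87. None passed the call with RPM. Besides ERF1B (-1.41 to -0.57), the differences were -0.93 for ERF6 (-1.02 to -0.84), -0.77 for DEWAX (-0.87 to -0.67), -0.77 for AT5G07580 (-0.92 to -0.61), -0.42 for ERF105 (-0.50 to -0.34) and -0.37 for ERF1A (-0.43 to -0.31). In group VIII 6 of 7 were below 0 (median -0.28), LEP being the exception. In the AP2 group 4 of 7 were above 0, with SMZ at 0.99 and SNZ at 0.71, and AP2 at -0.26.

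**Figure D3:**
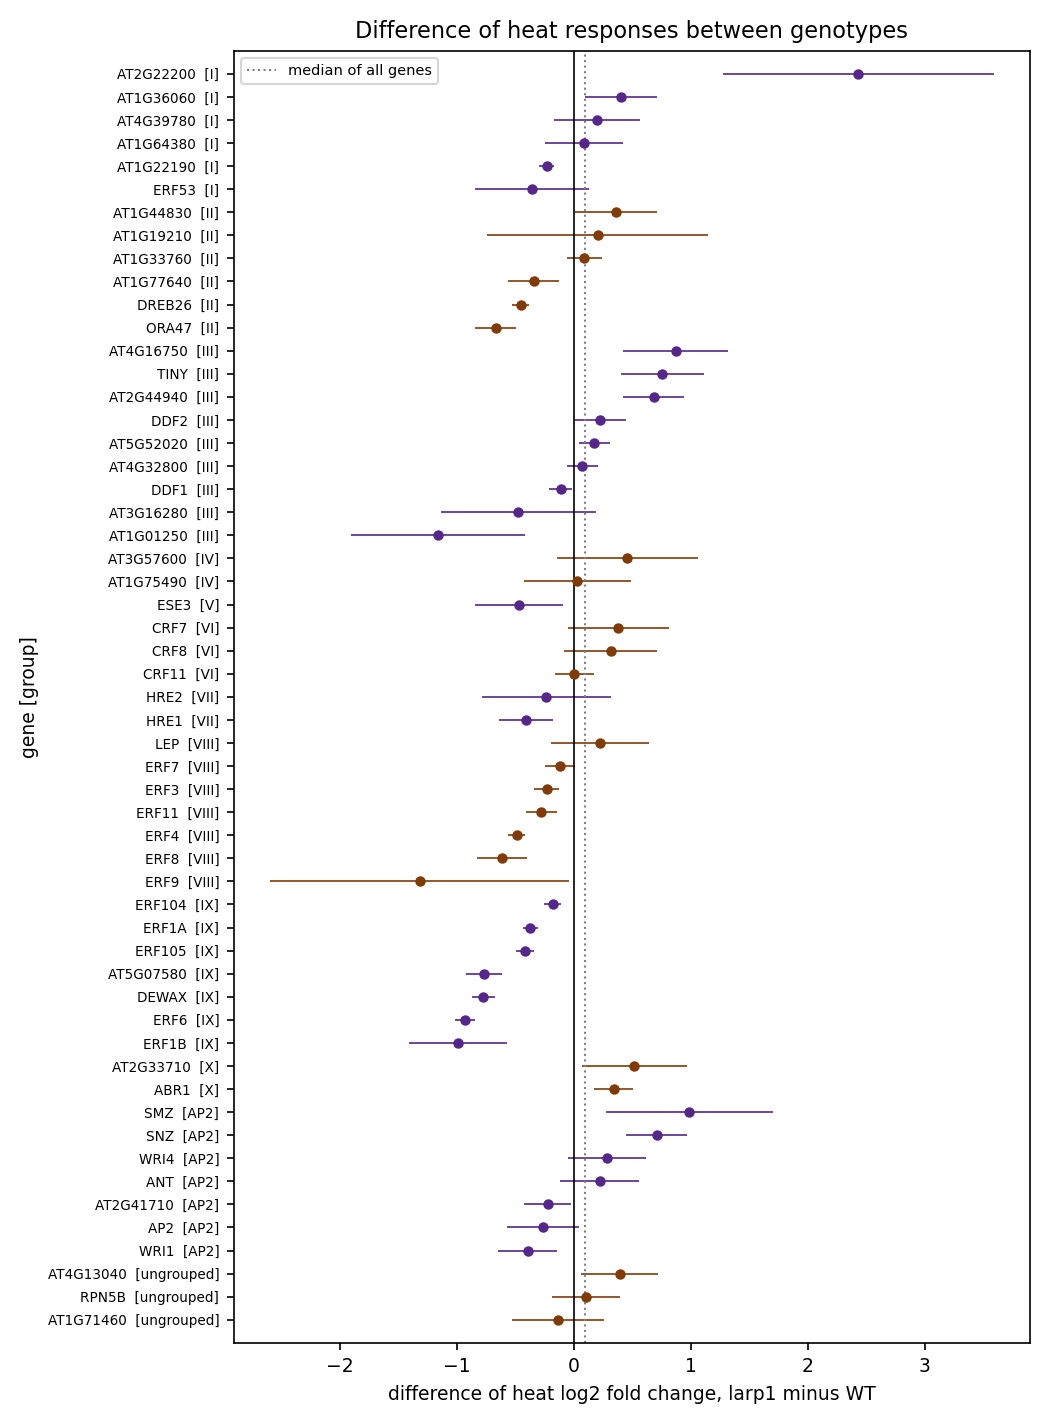
Difference of heat responses (log2 fold change in larp1 minus that in WT) for the 55 members compared in both genotypes, ordered by group: points are genes, lines are 95% counting intervals and the dotted line is the median of all genes. All 7 points of group IX lie left of 0, from -0.99 to -0.18, and AT2G22200 stands apart at 2.43.

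Among the listed partners, 2 of 8 low-oxygen genes and 1 of 3 GCC-box defence genes had a called difference below 0, and none had one above. LBD41 differed by -1.92 (-2.31 to -1.53). HRA1, a hypoxia-induced regulator known to restrain the group VII factor RAP2.12, differed by -1.40 (-2.14 to -0.66), with 0.65 RPM in larp1 38 °C and 1.1 RPM in larp1 20 °C, and 2.46 RPM in WT 38 °C and 1.54 RPM in WT 20 °C. PDF1.2A, a plant defensin gene with near-identical copies among which reads are hard to place, differed by -1.11 (-1.76 to -0.45). No ethylene signalling gene passed that call.

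Comparing larp1 with WT at a given temperature, AP2/ERF transcripts differed in few cases. At 38 °C, 3 of 52 compared members were higher in larp1 and none was lower, where 3.92% of 18528 genes were higher and 0.200% were lower. At 20 °C, 6 of 62 were higher and 1 was lower, where 3.49% of 20299 genes were higher and 0.493% were lower. Of these, HRE2, AT1G71450, AT1G71520 and AT2G20350, all higher, reached the minimum of reads in larp1 20 °C and not in WT 20 °C. The other called members reached it in both. As larp1 20 °C is the deeper library, the minimum favoured members with few reads that were high in larp1. All genes passed the same minimum, so their shares carry this limit too. With either scaling 2 members were lower at 20 °C, ESE2 being added, and the share of higher calls was 71.4% instead of 85.7%. With a pseudocount of 0.5 RPM the calls of AT1G71520, AT1G01250 and AT2G20350 at 20 °C were lost, leaving 3 higher. The members' median was 0.14 at 38 °C, against 0.14 for all genes, and 0.26 at 20 °C, against 0.04 for all genes. Among members with 1 distinct exon entry, 1 of 37 (2.70%) was higher at 38 °C, against 8.78% of all such genes. At 20 °C 3 of 44 (6.82%) were, against 7.31%. Among members with several entries, 2 of 15 (13.3%) were higher at 38 °C, against 3.06% of all such genes. At 20 °C 3 of 18 (16.7%) were, against 2.72%.

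HRE2, AT2G33710 and AT1G71520 were higher in larp1 at both temperatures. HRE2 had 7.08 RPM in larp1 38 °C and 2.05 RPM in WT 38 °C (1.78, 1.45 to 2.15), and 4.27 RPM in larp1 20 °C and 1.04 RPM in WT 20 °C (2.01, 1.59 to 2.51). Both of its exon entries showed this difference, at 1.74 and 1.77 at 38 °C and at 1.87 and 2.02 at 20 °C. AT2G33710, an ERF of group X, had 7.43 RPM in larp1 38 °C and 1.81 RPM in WT 38 °C (2.02, 1.68 to 2.42), and 8.22 RPM in larp1 20 °C and 2.88 RPM in WT 20 °C (1.50, 1.24 to 1.79). All 4 of its exon entries were higher in larp1 at each temperature. The entries of HRE2 and AT2G33710 make up the summed values that were called, so their direction is not separate support. AT1G71520, of group II, had 1.45 RPM (65 reads) in larp1 38 °C and 0.38 RPM (16 reads) in WT 38 °C (1.87, 1.14 to 2.83), and 1.73 RPM (129 reads) in larp1 20 °C and 0.76 RPM (35 reads) in WT 20 °C (1.16, 0.64 to 1.77). The 2 comparisons use different libraries, and each genotype is 1 pool at each temperature.

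AT1G71450, AT1G01250 and AT2G20350 were also called higher in larp1 at 20 °C. At 38 °C AT1G71450 was not called, and the other two, like AT2G22200, had under 50 reads in either library. AT1G71450 had 1.57 RPM (117 reads) in larp1 20 °C and 0.41 RPM (19 reads) in WT 20 °C (1.87, 1.22 to 2.71), and 1.27 RPM in larp1 38 °C and 0.84 RPM in WT 38 °C (0.58). AT1G01250 had a difference of 1.08 at 20 °C (0.70 to 1.51) and of -0.08 at 38 °C (-0.75 to 0.60) in larp1 over WT. AT2G20350, in no group, had 1.09 RPM in larp1 20 °C and 0.52 RPM in WT 20 °C (1.03, 0.39 to 1.78), and either scaling put it just under the threshold. AT2G22200 was the member that was lower in larp1 at 20 °C (-1.23, -1.53 to -0.94).

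At 20 °C, 62.9% of the compared members were above WT in larp1, against 56.8% of all genes, and at 38 °C 69.2% were, against 70.3% of all genes. In group IX at 20 °C, 6 of 7 members were above WT (median 0.53), with ERF105 at 0.69, ERF104 at 0.65, ERF6 at 0.61 and ERF1A at -0.16. In group II at 20 °C, 8 of 9 were above WT (median 0.58), the called AT1G71450 and AT1G71520 among them. AT1G71450, AT1G71520 and AT5G21960 of group II reached the minimum of reads in larp1 20 °C and not in WT 20 °C. Since larp1 20 °C is the deeper library, the minimum favoured their sign, and they do not count as support for a tendency of the group. At 38 °C, 5 of 7 group IX members were below WT (median -0.32), with ERF104 (0.47) and ERF105 (0.27) above. The comparison at 20 °C and the difference of heat responses share the larp1 and WT 20 °C libraries, so these values are not independent of each other. None of these group IX values passed the call. HRA1 (-1.89) and PDF1.2A (-1.30) were the listed partners called lower in larp1 at 38 °C, to which either scaling added LBD41 (-1.13 with TMM), and no listed partner was called at 20 °C.

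**Figure D4:**
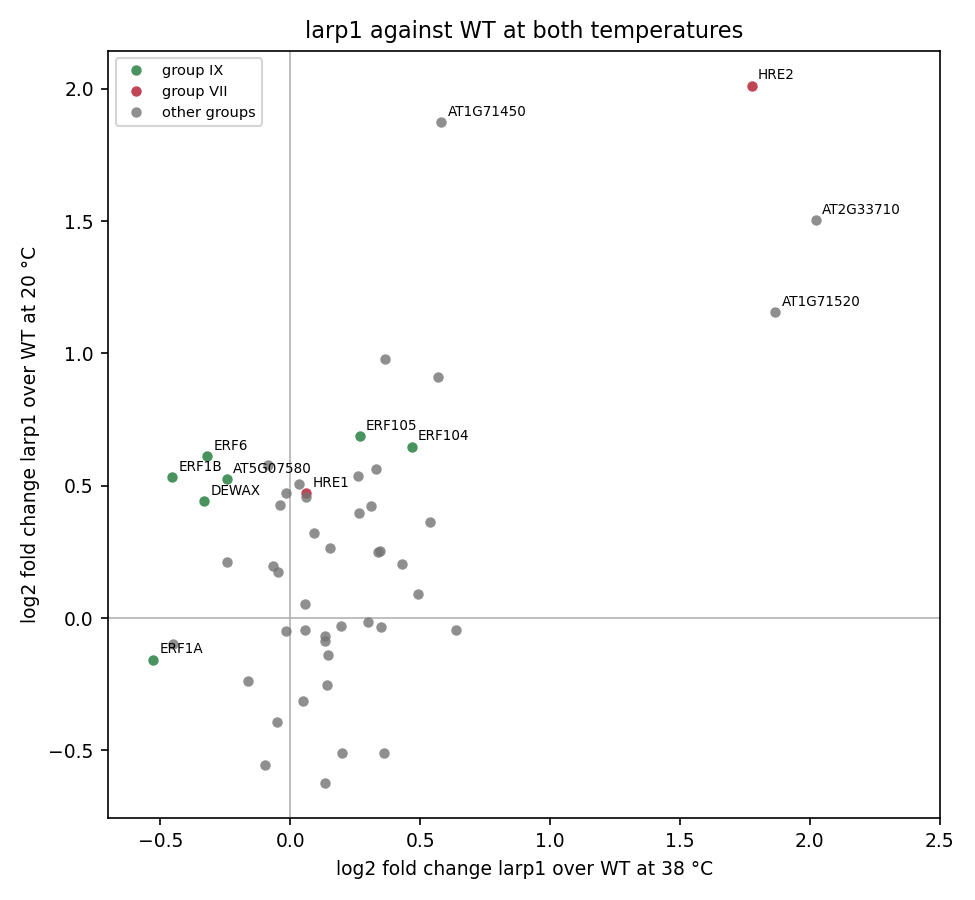
larp1 against WT for the 52 members compared at both temperatures: the x axis gives the log2 fold change of larp1 over WT at 38 °C and the y axis that at 20 °C, each point being 1 gene. HRE2, AT2G33710 and AT1G71520 lie above 1 on both axes, AT1G71450 only on the y axis, and 4 of the 7 group IX points (green) lie above 0 at 20 °C and below 0 at 38 °C.

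The remaining 20 members had under 50 reads in every library and were not compared. Their highest level was 0.91 RPM, and 11 of them had under 10 reads in every library. Among them were the cuticle regulators SHN1 and SHN3, the shoot regulator ESR1, ERF115, known from root stem cell division, and AT1G28160, which had no read anywhere. With 0 reads, levels up to the worth of 3 reads (from 0.0403 RPM in larp1 20 °C to 0.0704 RPM in WT 38 °C) are not excluded by counting. Of all members, 14 overlap another annotated gene in TAIR10.1, most on the opposite strand, and their values carry the limit given for ERF105.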

How the data were processed

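Total RNA of whole plantlets was depleted of ribosomal RNA with a duplex-specific nuclease and sequenced as single reads of 100 bases, per the labels' protocols. The submitters' processing notes name BWA 0.5.9 and the build TAIR10; for the counting tool and strand, nothing is stated. Per the file headers, the deposited signal of each exon entry is in RPM, which the authors rounded to 2 decimals. Entries number 181379, with 132172 distinct within their gene, and column sums exceed what RPM allows.

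The value of a gene was the sum of its distinct entries; where alternative exons overlap, as in HRE1, ABR1 and DDF2, a read can count repeatedly. The worth of 1 read was inferred from the steps between values and served for minimums and for 95% conditional binomial intervals. A normal interval was used for the difference of heat responses. Since the design had 1 library per group, no model was fitted. All comparisons were made over the whole table. Intervals and floors leave out any dependence between PCR copies and so cover counting error only.

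The members, groups and lists were chosen with earlier results of these data known. Members were named by rule: with at least 100 reads, the 8 highest and 8 lowest called in each heat comparison, the 5 and 5 of the others, called members of groups with 5 or fewer compared members, group VII, and the member with the most reads of each group. DEWAX, ERF6, ERF105, ERF1B, ERF3, ERF7, ERF12, SNZ, AP2, ANT, WRI1, WRI4, ORA47, LEP, AT1G64380 and the other members outside it were named after their values were seen, and so were EIN3 and ADH1. Sequences were read from the RefSeq genome and annotation of TAIR10.1, in which all 82 members matched. Software was pandas 2.3.3, numpy 2.4.6, scipy 1.17.1 and matplotlib 3.10.9 under Python 3.11.15. The calling was run on simulated reads with counting error only. That run held no variation between plantlets or libraries, so it cannot show how calls fare under such variation. Alternatives were TMM and median-of-ratios scaling, no minimum of reads or 10, 0.5 RPM as pseudocount, the single highest entry and all entries with repeats.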

Additional observations from a re-analysis of the deposited data

Results flagged for a closer look

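For 3 members the heat response of larp1 differed from that of WT at least 2-fold and beyond counting error. With 1 library per group the difference could not be tested over replicates. AT2G22200 differed by 2.43 on the log2 scale, larp1 minus WT, with 8 reads in WT 38 °C. ERF9 differed by -1.32, with 6 reads in larp1 38 °C and an interval that nearly reached 0. AT1G01250 differed by -1.16, with 39 reads in each library at 38 °C. The calls of ERF9 and AT1G01250 were lost with a pseudocount of 0.5 RPM.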

How the results depend on the processing

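Counts are of members called higher or lower. With TMM scaling, heat in larp1 gave 7 higher and 14 lower, heat in WT 5 and 10, larp1 against WT at 20 °C 2 lower, and the difference of heat responses 4 lower. Median-of-ratios scaling gave 7 and 14 in larp1, 5 and 9 in WT, and likewise 2 lower at 20 °C and 4 lower for the difference. A minimum of 10 reads gave 6 higher and 1 lower at 38 °C (larp1 against WT), and 2 higher and 5 lower for the difference; no minimum gave 6 and 1 at 38 °C, 2 lower at 20 °C, and 3 higher and 6 lower for the difference. A pseudocount of 0.5 RPM gave 3 higher at 20 °C and 0 lower for the difference. The single highest exon entry gave 2 higher for the difference. Counting all entries with repeats moved no count past 1.5 times, and neither did leaving out AT1G71460 and RPN5B, an alternative chosen after seeing the data. The members' median at 38 °C, larp1 over WT, turned to -0.0038 with TMM and -0.022 with median-of-ratios scaling, and that of the difference to 0.0057 with a minimum of 10 reads. Of 160 values of named members, the call, or its absence, was as reported for 147 with TMM, 146 with median-of-ratios, 154 with the pseudocount, 156 with either other minimum, 159 with the single entry and 160 with all entries. No called value changed its sign, whereas uncalled values did in 20 cases with TMM, 21 with median-of-ratios, 1 with the pseudocount and 2 with the single entry. With TMM and median-of-ratios scaling no called value could change its sign, since their shifts are smaller than a call needs. Causes were not tested. No paired analysis was possible because each group has 1 library. Depth limits the members with few reads, above all ERF9 and AT2G22200.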
